A study of Homo sapiens with 24 samples.

Results

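The genes described here are 10 members of the ATR-CHEK1 replication checkpoint, chosen by symbol: ATR, ATRIP, ETAA1, TOPBP1, RAD17, RAD9A, HUS1, RAD1, CLSPN and CHEK1. Each was matched through its Ensembl identifier to the count table of 20345 genes, where all 10 were found, and all 10 passed the filter on low counts in each of the 16 comparisons made. The RNA came, by the sample labels, from A2058, an established human melanoma cell line (1 figure legend of the study names another melanoma line). The cells were transfected with a scrambled control siRNA (siCTRL) or with siLSM14A, siRNA that targets LSM14A. The study's methods give a dose of 20 nM for each siRNA against LSM14A and none for the control. LSM14A is an RGG-motif RNA-binding protein of cytoplasmic granules, and the study asked how its loss alters the association of mRNAs with polysomes, with and without replication stress. The cells were left untreated (NT) or kept in 10 mM hydroxyurea (HU) for 2 h, which gave 4 conditions (siCTRL NT, siCTRL HU, siLSM14A NT and siLSM14A HU), all in the same parental line with a transient knockdown. Each condition had 3 replicate numbers, each with a library of total RNA and a library of polysomal RNA, so that 24 libraries were compared. The libraries that share a condition and a number are here called a culture, although the labels do not say that both came from the same dish, and every ratio per culture below rests on that number. Polysomal RNA was recovered after cycloheximide from the heavy fractions of a sucrose gradient, where mRNAs that carry many ribosomes sediment.

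HU inhibits ribonucleotide reductase and starves replication forks of nucleotides, which leaves stretches of single-stranded DNA coated by RPA. The kinase ATR is brought to this DNA by its partner ATRIP and is switched on by TOPBP1, which needs the RAD9A-RAD1-HUS1 (9-1-1) clamp loaded by RAD17, or by ETAA1, which binds RPA directly. Active ATR, with the mediator claspin (CLSPN), phosphorylates the kinase CHEK1, which slows the cell cycle and protects stalled forks. The checkpoint is best known as a cascade of phosphorylation, and the values below are levels of the mRNAs, not of the proteins or their activity.

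The knockdown was checked first. LSM14A stood at 81.6, 85.1 and 86.1 counts-per-million (CPM) in total RNA of siCTRL NT cells and at 7.3, 8.31 and 6.95 in siLSM14A NT cells, and at 80.9, 91 and 85.9 in siCTRL HU and 6.6, 7.69 and 6.14 in siLSM14A HU cells. The log2 change was -3.49 ± 0.075 (SE) without HU and -3.67 ± 0.0871 with HU, with adjusted p of 1.91e-09 and 8.41e-11 (edgeR). A library held from 24789280 to 40645263 counts for total RNA and from 28776634 to 44897501 for polysomal RNA. Of 8 melanocyte and neural crest markers, 6 lay between 70.3 CPM (lowest library of TYR) and 912 CPM (highest of DCT) in total RNA, SOX10 among them at 550 to 666 CPM, and MLANA (5.48 to 10.2 CPM) and TYRP1 (3.92 to 5.48 CPM) were low. Of 8 markers of other cell types, KRT5 was at 0 counts in every total RNA library, EPCAM, CDH1, CD3E, PTPRC and CDH5 reached at most 10 counts in a library, CD14 had 6 to 24 counts and KRT14 had 36 to 107 counts. In 4 cultures (siCTRL NT replicate 3, siLSM14A NT replicate 1, siLSM14A HU replicates 1 and 3) the polysomal-to-total ratio depended less on the GC content of the mRNA than in the other 8. Several, but not all, of the polysomal estimates that rest on these 4 cultures are given below also without them. The 4 were picked after the ratios were seen, and without them siLSM14A HU keeps only replicate 2. The labels number the replicates without saying whether they were separate cultures, so the p-values measure the spread between these samples, which may be technical. In bulk RNA, fewer cells expressing a gene and less RNA per cell cannot be told apart.

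The mRNAs of the 10 genes differed in length and base composition. The GC content of the canonical transcript ranged from 35.5% in ETAA1 to 60.2% in RAD9A. ETAA1, RAD1 (39.6%), ATR (39.7%) and RAD17 (37.9%) lay in the GC-poorest bin when all tested genes were split by GC content into 5 bins of equal size, CHEK1 (41.6%), TOPBP1 (41.9%), HUS1 (43.8%) and CLSPN (44%) in the next, and ATRIP (58.7%) and RAD9A in the GC-richest bin. A stretch of coding sequence from the middle of the longest coding exon shows this for 3 members. These 3 were all higher in polysomal than in total RNA, as given below. Each stretch has 90 bases, read 5′ to 3′ on the coding strand of the GRCh37 (hg19) genome, with G and C in capitals. The stretches lie at ATR chr3:142281468-142281557 (minus strand, exon 4, 33 G and C), ATRIP chr3:48501809-48501898 (plus strand, exon 8, 49 G and C) and RAD9A chr11:67164709-67164798 (plus strand, exon 10, 58 G and C).
ATR: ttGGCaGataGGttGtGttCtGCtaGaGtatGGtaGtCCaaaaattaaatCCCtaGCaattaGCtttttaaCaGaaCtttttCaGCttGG
ATRIP: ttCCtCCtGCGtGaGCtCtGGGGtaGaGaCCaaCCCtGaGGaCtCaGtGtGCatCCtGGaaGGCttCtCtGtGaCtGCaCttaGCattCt
RAD9A: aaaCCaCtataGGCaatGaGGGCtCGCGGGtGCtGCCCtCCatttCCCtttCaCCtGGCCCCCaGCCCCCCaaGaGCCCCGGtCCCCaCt
At the third base of the codons the contrast was wider, from 29.9% G or C in ETAA1 and 34.9% in ATR to 58.7% in ATRIP and 76.2% in RAD9A. The messages also differed in their untranslated ends. ATR had a 3′ UTR of 194 bases behind a coding sequence of 7935 bases, and RAD1 one of 3505 bases behind 849 coding bases.

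To ask which checkpoint mRNAs were abundant in these cells, total RNA was compared per kilobase of the canonical transcript, on the CPM per kb scale over the 12 total RNA libraries. TOPBP1 was highest at 16.8 ± 0.678 (SD, n = 12), and its lowest library was above the highest of CHEK1, which followed at 11 ± 0.547. The clamp subunits RAD1 (9.62 ± 0.377), HUS1 (9.08 ± 0.79) and RAD9A (6.95 ± 0.751), the loader RAD17 (6.68 ± 0.707) and CLSPN (5.67 ± 0.423) came next, and each neighbour in this order from CHEK1 down to CLSPN overlapped the next. ATR stood below all of these at 3.94 ± 0.309, with every library under the lowest of CLSPN, and ATRIP (2.77 ± 0.212) and ETAA1 (2.23 ± 0.26) were lowest and overlapped each other. Thus the kinase ATR was at the 36.3rd percentile of all tested genes and CHEK1 at the 60.2nd. The order depends on the length used: per kb of all annotated exons together ATR came last instead of eighth, and RAD9A came after CLSPN, at seventh. Counts per library ranged from 58 for ETAA1 in polysomal RNA to 4756 for TOPBP1.

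**Figure D1:**
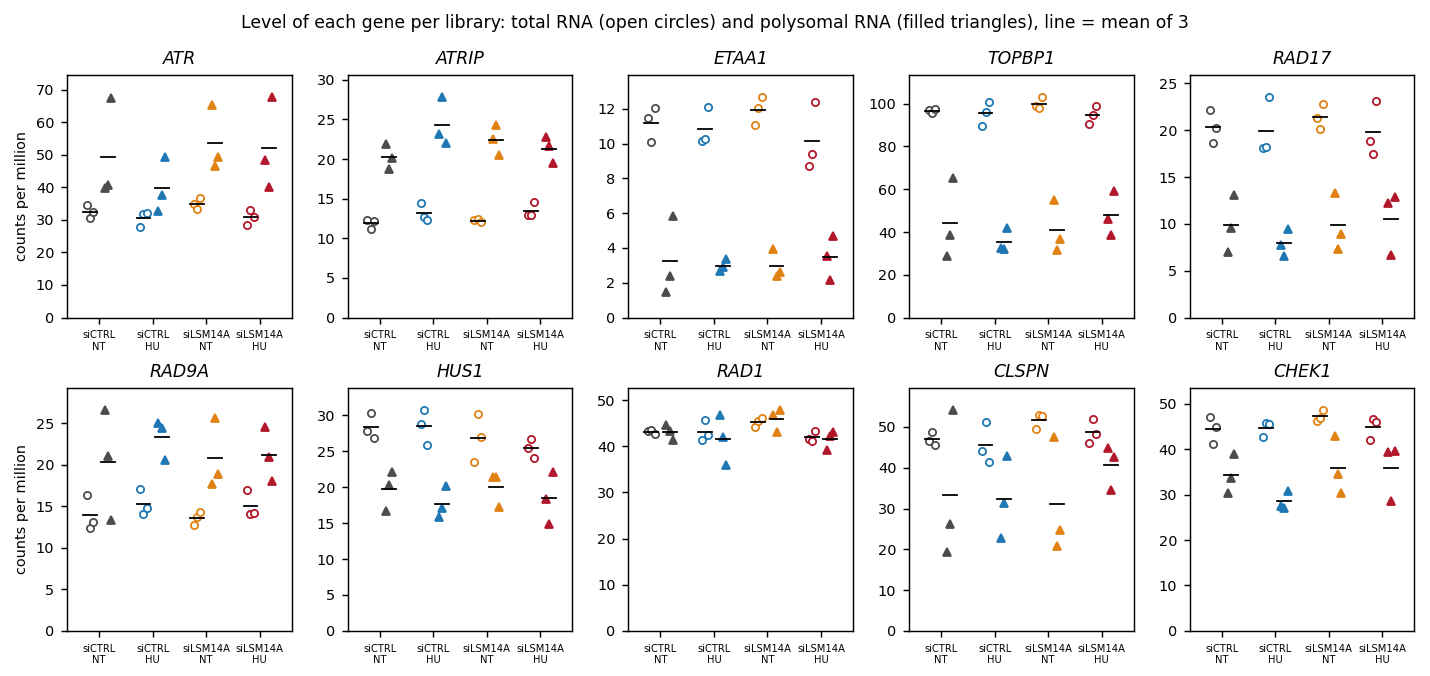
Level of each checkpoint gene in CPM (y axis, linear from 0, a scale of its own for each gene) in the 4 conditions (x axis). Open circles are the 3 total RNA libraries, filled triangles the 3 polysomal libraries, and the black line is their mean. Polysomal TOPBP1, ETAA1, RAD17 and HUS1 lay below total RNA in all libraries, polysomal ATRIP lay above it, and the conditions overlapped in polysomal RNA for most genes. The share of all genes without overlap between the fractions is not given here.

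The distribution of the mRNAs between heavy polysomes and total RNA was then compared over all 24 libraries, with condition as a covariate. A positive log2 value means a larger share of polysomal than of total RNA, relative to the other mRNAs. Of the 10 members, 3 were higher in polysomal RNA (ATR, ATRIP and RAD9A), 6 were lower (ETAA1, TOPBP1, RAD17, HUS1, CLSPN and CHEK1), and RAD1 did not pass the test (edgeR quasi-likelihood F-test, adjusted p under 0.05). Among all 12855 genes tested, 40.4% were higher and 44.3% lower, so that passing this test is common and the count is not particular to the members. The members' median log2 difference was -0.47 and that of all genes -0.058. DESeq2 called the same 9 members.

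The kinase and its partner were both higher in heavy polysomes. In total RNA ATR (minus strand of chr3:142167849-142297575) was at 34.5, 30.6 and 32.3 CPM in siCTRL NT cells, 27.8, 31.9 and 32.1 in siCTRL HU cells, 34.8, 33.2 and 36.6 in siLSM14A NT cells and 28.5, 33 and 30.9 in siLSM14A HU cells. In polysomal RNA it was at 39.7, 40.8 and 67.6 CPM in siCTRL NT cells, 32.8, 37.7 and 49.3 in siCTRL HU cells, 65.2, 46.6 and 49.4 in siLSM14A NT cells and 48.2, 40 and 67.8 in siLSM14A HU cells. Polysomal ATR was thus above total ATR in every culture, and across cultures a single polysomal library, siCTRL HU replicate 1, lay within the range of total RNA. The log2 difference was 0.59 ± 0.0952 (SE), adjusted p = 2.73e-06, and the ratio in single cultures ran from 0.21 to 1.14 with a median of 0.46. ATRIP, which tethers ATR to RPA (plus strand of chr3:48488114-48509044), was at 11.2 to 14.6 CPM in total RNA (median 12.4, n = 12) and at 18.7 to 27.9 CPM in polysomal RNA (median 21.9). It was the only member whose polysomal libraries all lay above its total RNA libraries, with a log2 difference of 0.80 ± 0.0553 (SE), adjusted p = 7.43e-13. Exons of ATRIP share 26.7% of their bases with TREX1 on the same strand, so its count and its level per kb may be too high or too low. ATR shares 7.52% of its exonic bases with EIF2AK1P1 on the opposite strand. Opposite-strand overlaps were larger for CHEK1 (13.4%, a gene without a symbol) and RAD17 (9.14%, AK6 and TAF9). They were smaller for RAD9A (5.52%, PPP1CA), CLSPN (2.92%) and TOPBP1 (1.47%). The library kit keeps strand, but the strand setting used for counting was not given in the sources used here, so reads from such overlaps cannot be assigned with certainty.

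The activators of ATR were both lower in heavy polysomes, with the lowest estimates of the 10 genes. ETAA1, the RPA-bound activator (plus strand of chr2:67624454-67639221), was in total RNA at 11.5, 10.1 and 12 CPM in siCTRL NT cells, 10.2, 10.3 and 12.1 in siCTRL HU cells, 11.1, 12 and 12.7 in siLSM14A NT cells and 8.68, 9.43 and 12.4 in siLSM14A HU cells. In polysomal RNA it was at 1.46, 2.4 and 5.81 CPM in siCTRL NT cells, 2.7, 2.92 and 3.34 in siCTRL HU cells, 3.91, 2.41 and 2.63 in siLSM14A NT cells and 3.53, 2.16 and 4.72 in siLSM14A HU cells. No polysomal library reached the lowest total RNA library, and the log2 difference was -1.81 ± 0.151 (SE), adjusted p = 2.88e-11, at the 1.94th percentile of all genes. TOPBP1, which activates ATR at the clamp (minus strand of chr3:133317019-133381224), was in total RNA at 97.2, 95.7 and 97.3 CPM in siCTRL NT cells, 89.4, 96.2 and 101 in siCTRL HU cells, 98.8, 98 and 103 in siLSM14A NT cells and 90.5, 94.7 and 98.9 in siLSM14A HU cells. In polysomal RNA it was at 28.7, 38.8 and 65.3 CPM in siCTRL NT cells, 32.4, 32 and 41.9 in siCTRL HU cells, 55.2, 31.5 and 36.5 in siLSM14A NT cells and 46, 38.5 and 59.1 in siLSM14A HU cells. Total RNA of TOPBP1 varied little, with a coefficient of variation of 4.04% over 12 libraries, whereas polysomal RNA varied by 28.2% and again did not reach the total RNA level. The log2 difference was -1.21 ± 0.108 (SE), adjusted p = 9.95e-11.

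The clamp subunits did not lie on the same side of total RNA, and their loader was lower in heavy polysomes. The 9-1-1 clamp holds RAD9A, RAD1 and HUS1 in equal numbers, and in total RNA their levels per kb lay at 6.95, 9.62 and 9.08 CPM per kb, while in polysomal RNA they lay at 10.3, 9.54 and 6.31. RAD9A (plus strand of chr11:67085342-67165881) was higher in polysomal RNA by 0.56 ± 0.089 (SE), adjusted p = 2.07e-06. Its total RNA was at 16.4, 12.4 and 13.2 CPM in siCTRL NT cells, 17.1, 14.1 and 14.8 in siCTRL HU cells, 12.7, 13.7 and 14.3 in siLSM14A NT cells and 17, 14 and 14.2 in siLSM14A HU cells, and its polysomal RNA at 26.6, 21.1 and 13.4 CPM in siCTRL NT cells, 25, 24.4 and 20.6 in siCTRL HU cells, 17.7, 25.6 and 18.9 in siLSM14A NT cells and 24.6, 20.9 and 18 in siLSM14A HU cells. The ratio was above 0 on the log2 scale in all 12 cultures but was 0.025 in siCTRL NT replicate 3, where polysomal RAD9A was lowest. HUS1 (minus strand of chr7:48002885-48019212) ran the other way, at 23.6 to 30.8 CPM in total RNA and 14.9 to 22.2 in polysomal RNA with no overlap, a log2 difference of -0.53 ± 0.0698 (SE), adjusted p = 1.30e-07. RAD1 (minus strand of chr5:34905365-34919094) was at 41.2 to 46.2 CPM and 35.9 to 47.9 CPM in the 2 fractions, and its log2 difference was -0.013 with a 95% interval of -0.10 to 0.076 and an adjusted p of 0.788. RAD17, which loads the clamp (plus strand of chr5:68665120-68710628), was at 17.5 to 23.6 CPM in total and 6.57 to 13.3 CPM in polysomal RNA, lower by a log2 difference of -1.10 ± 0.115 (SE), adjusted p = 1.91e-09.

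The downstream kinase and its mediator were moderately lower in heavy polysomes. CHEK1 (plus strand of chr11:125495058-125546150) was in total RNA at 47.1, 41.1 and 44.9 CPM in siCTRL NT cells, 42.6, 45.8 and 45.5 in siCTRL HU cells, 46.2, 47 and 48.6 in siLSM14A NT cells and 42.1, 46.6 and 46 in siLSM14A HU cells. In polysomal RNA it was at 30.4, 33.7 and 39 CPM in siCTRL NT cells, 27.5, 27.1 and 30.8 in siCTRL HU cells, 42.9, 34.5 and 30.3 in siLSM14A NT cells and 39.3, 28.6 and 39.5 in siLSM14A HU cells. The polysomal value was the lower in all 12 cultures, although siLSM14A NT replicate 1 at 42.9 CPM reached into the range of total RNA. The log2 difference was -0.43 ± 0.0657 (SE), adjusted p = 1.09e-06. CLSPN, the claspin gene (minus strand of chr1:36185819-36235579), had a log2 ratio that ran from -1.35 to 0.25 with a median of -0.65 over the cultures. Its total RNA was at 46.7, 48.9 and 45.5 CPM in siCTRL NT cells, 44.2, 51.3 and 41.4 in siCTRL HU cells, 49.5, 52.9 and 52.6 in siLSM14A NT cells and 46.1, 51.9 and 48.2 in siLSM14A HU cells, and its polysomal RNA at 19.2, 26.3 and 54.2 CPM in siCTRL NT cells, 22.8, 31.4 and 42.8 in siCTRL HU cells, 47.6, 20.7 and 24.8 in siLSM14A NT cells and 44.8, 34.5 and 42.7 in siLSM14A HU cells. The ratio was below 0 in 10 of 12 cultures, and the log2 difference was -0.50 ± 0.139 (SE), adjusted p = 0.00187.

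**Figure D2:**
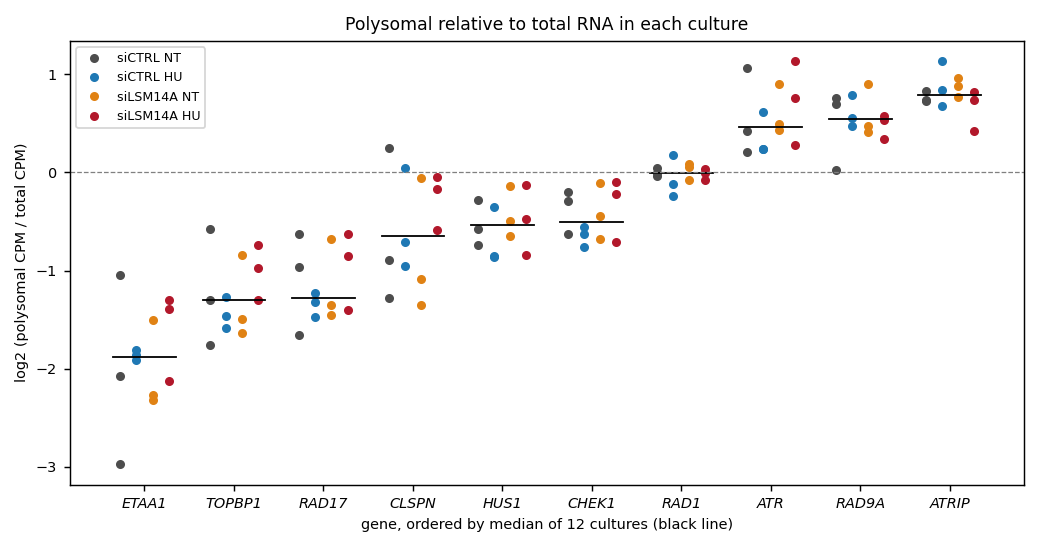
The log2 ratio of polysomal to total CPM (y axis) of each checkpoint gene (x axis, ordered by the median, black line) in the 12 cultures, coloured by condition. ETAA1, TOPBP1, RAD17, HUS1 and CHEK1 were below 0 in 12 of 12 cultures and ATR, RAD9A and ATRIP above 0 in 12 of 12, and within a gene the colours mixed. The share of all genes on the same side in every culture is not given here. Of all genes tested, 40.4% were higher and 44.3% lower in polysomal RNA (edgeR, adjusted p under 0.05).

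These differences were set beside the base composition of the transcripts. Over 12798 genes, the log2 difference between polysomal and total RNA had a Spearman correlation of 0.696 with GC content, -0.387 with 3′ UTR length, -0.299 with transcript length and -0.013 with coding length. These are correlations across genes, which share the libraries and are not independent replicates. The median difference was -0.82 in the GC-poorest bin of genes and 0.74 in the GC-richest. Beside genes of like composition, HUS1, CHEK1 and CLSPN lay near the median of their bin (-0.50), TOPBP1 and RAD17 lay above the 10th percentile of theirs (-1.35 and -1.58), and ATRIP and RAD9A lay within the 10th to 90th percentile range of theirs (0.045 to 1.29). ATR stood out from its bin, at 0.59 where the 90th percentile was -0.039, and RAD1 at -0.013 was just above that limit. ETAA1 was below the 10th percentile of the same bin (-1.58). When GC content was entered as an offset, the log2 difference was 1.22 for ATR and 0.64 for RAD1, and both passed the test (adjusted p = 1.63e-15 and 7.45e-10). With the same offset RAD9A turned to -0.18 (adjusted p = 0.0209) and CHEK1 to 0.087 (adjusted p = 0.0501), CLSPN at -0.16 no longer passed (adjusted p = 0.233), and ATRIP stood at 0.14 (adjusted p = 0.0344). ETAA1 (-0.90), TOPBP1 (-0.72), RAD17 (-0.36) and HUS1 (-0.16) remained lower and passed.

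**Figure D3:**
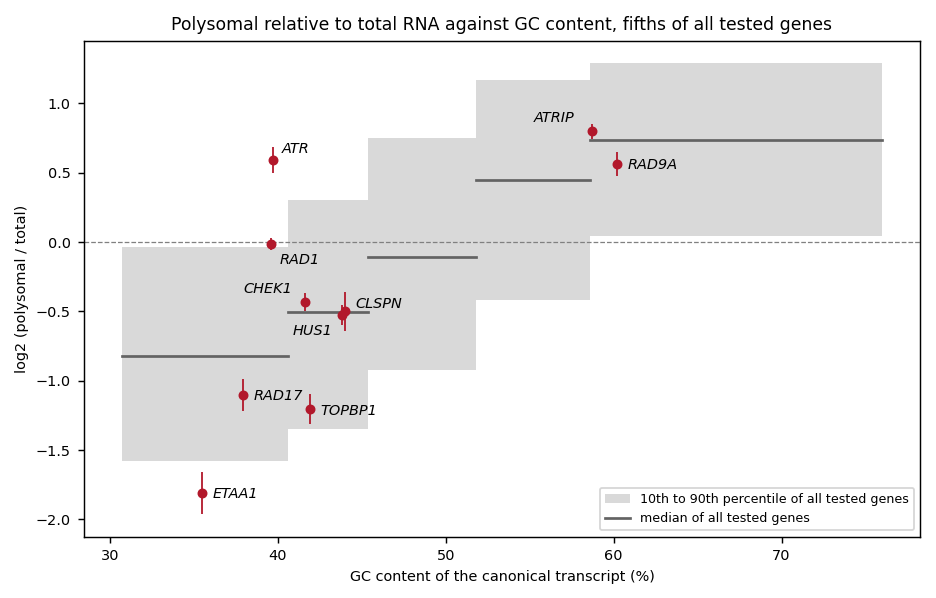
The log2 difference between polysomal and total RNA (y axis) against the GC content of the canonical transcript in percent (x axis). Red points are the checkpoint genes with their SE, grey boxes span the 10th to 90th percentile of all tested genes in each of 5 bins of GC content, and the grey lines are the medians. ATR lies above the box of its bin and ETAA1 below it.

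The effect of the knockdown on the checkpoint mRNAs was tested first without HU. In total RNA, no member passed the adjusted threshold (edgeR), where 0.566% of the 12544 genes tested did, and 1 of 10 had an unadjusted p under 0.05, where 10.8% of genes did. This was CLSPN, at 49.5, 52.9 and 52.6 CPM in siLSM14A NT cells against 46.7, 48.9 and 45.5 in siCTRL NT cells. The groups did not overlap, and the log2 change of 0.13 (95% interval 0.011 to 0.26, adjusted p = 0.419) did not pass the correction, nor did 0.14 without the 4 cultures (adjusted p = 0.913). TOPBP1 (0.047) and RAD1 (0.069) were also higher in every siLSM14A NT library than in any siCTRL NT library. The share of all genes without overlap is not given here. DESeq2 also called 0 members, with 0 at an unadjusted p under 0.05. The estimate was 0.093 (95% interval -0.046 to 0.23) for CHEK1 and 0.11 (95% interval -0.041 to 0.25) for ATR on the log2 scale, intervals that include 0. The members' changes ran from -0.076 to 0.13, with a median of 0.071 against -0.00086 for all genes.

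With HU, the knockdown comparison in total RNA called 0 members, beside 0.802% of 12475 genes, and 0 of 10 were at an unadjusted p under 0.05, beside 8.54% of genes. DESeq2 gave the same counts. HUS1 came nearest, at 25.5, 26.7 and 24.1 CPM in siLSM14A HU and 28.8, 30.8 and 25.8 in siCTRL HU cells, with a log2 difference of -0.17 (95% interval -0.34 to 0.0018, adjusted p = 0.594) and an overlap of the groups at siCTRL HU replicate 3. The estimate for ATR was -0.0029 (95% interval -0.17 to 0.17) and for CHEK1 -0.0014 (95% interval -0.14 to 0.14). With the replicate number as a block, which the data allow for this comparison, 403 genes were called higher and 452 lower, and still 0 members.

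In polysomal RNA without HU, the knockdown called 0 members, beside 0.0162% of 12342 genes, and 0 were at an unadjusted p under 0.05, beside 1.96% of genes, by edgeR and by DESeq2. The estimates lay between -0.11 for TOPBP1 and 0.14 for ATRIP. Intervals were wider than in total RNA, as for CLSPN at -0.10 (95% interval -0.99 to 0.79) and ETAA1 at -0.10 (95% interval -1.10 to 0.91). Changes of these genes within these bounds were thus compatible with the data. The polysomal-to-total ratio (translation efficiency, TE), tested as a fraction-by-condition interaction term, was compared next. No member was called, beside 0% of 12757 genes, and 0 were at an unadjusted p under 0.05, beside 0.87% of genes, by either tool. TE of ATR differed by 0.02 (95% interval -0.56 to 0.60) and TE of CHEK1 by -0.029 (95% interval -0.45 to 0.39). Without the 4 cultures the polysomal estimates were 0.012 for CLSPN, 0.41 for ETAA1, 0.024 for TOPBP1 and 0.14 for ATRIP, and the TE estimates 0.16 for ATR and -0.10 for CHEK1.

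In polysomal RNA under HU, 8 of 10 members were nominally higher in siLSM14A than in siCTRL cells, with a median log2 difference of 0.29 against 0.01 for all genes. Without the 4 cultures 3 of 10 were higher and the median was -0.094, with TOPBP1 at 0.10, ATR at -0.014, RAD17 at -0.27, CHEK1 at -0.0097 and ETAA1 at -0.48. That fit keeps only replicate 2 of siLSM14A HU. The 4 cultures were picked by the polysomal-to-total ratio after it was seen, so the fit is no independent check of the difference. Over all cultures none was called, beside 0.0653% of 12256 genes, and 1 had an unadjusted p under 0.05, beside 4.99% of genes. That unadjusted count was 4 without siLSM14A HU replicate 2, 3 without siCTRL HU replicate 3 and 0 without any 1 of the other 4 cultures of the comparison, while the genes at that threshold went from 611 to 2153, to 1840 and to between 235 and 420. The 1 member was TOPBP1, at 46, 38.5 and 59.1 CPM in siLSM14A HU cells and 32.4, 32 and 41.9 in siCTRL HU cells. The lowest siLSM14A HU library lay under the highest siCTRL HU library, and the log2 difference was 0.44 (95% interval 0.034 to 0.85, adjusted p = 0.739). The estimates were 0.39 with a 95% interval of -0.073 to 0.86 for ATR, 0.43 with a 95% interval of -0.13 to 0.99 for RAD17 and 0.34 with a 95% interval of -0.033 to 0.71 for CHEK1, none past the unadjusted threshold. The members with GC-rich transcripts had negative estimates, -0.19 with a 95% interval of -0.54 to 0.16 for ATRIP and -0.14 with a 95% interval of -0.51 to 0.24 for RAD9A. For TE, 0 members were called, beside 0% of 12649 genes, and TOPBP1 was the 1 member at an unadjusted p under 0.05, beside 3.85% of genes, with 0.46 (95% interval 0.012 to 0.90, adjusted p = 0.778). The unadjusted count for TE was 4 without siLSM14A HU replicate 2, 2 without siCTRL HU replicate 3 and 0 without any 1 of the other 4 cultures of the comparison. The share of all genes in these TE fits is not given here, so the counts are not read as a trait of the members. DESeq2 called 0 members in both comparisons, with 1 at an unadjusted p under 0.05 in each.

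The dependence of the ratio on GC content differed between cultures. In each culture the median log2 polysomal-to-total ratio of the GC-poorest bin of genes was subtracted from that of the GC-richest bin. This contrast was 0.896 in siCTRL NT replicate 3, 0.904 in siLSM14A NT replicate 1, 1.13 in siLSM14A HU replicate 3 and 1.2 in siLSM14A HU replicate 1, and from 1.58 to 2.17 in the other 8 cultures. Beside it, the median log2 ratio of the 10 checkpoint genes was -0.12, -0.082, -0.15 and -0.089 in those 4 cultures, and from -0.75 to -0.3 in the other 8. Most of the 10 genes lay in the GC-poorest bin or the next, and both quantities use the same ratios. A lower contrast thus goes in part with a higher median by construction. Of the siLSM14A HU cultures, 2 of 3 were among the 4, and of the siCTRL HU cultures none, and the part of this in the results was not tested. With GC offsets the TE difference of TOPBP1 was 0.30 (adjusted p = 1), and without the 4 cultures it was 0.13 (adjusted p = 1), with 1 siLSM14A HU culture left that is assumed to vary like the others. The TE estimate of ATR was then -0.11 and that of CHEK1 -0.062, and the members' median was -0.08, with 2 of 10 above 0. Without those cultures polysomal against total RNA called 9 members as before, with ATR at 0.39 and CLSPN at -0.81.

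**Figure D4:**
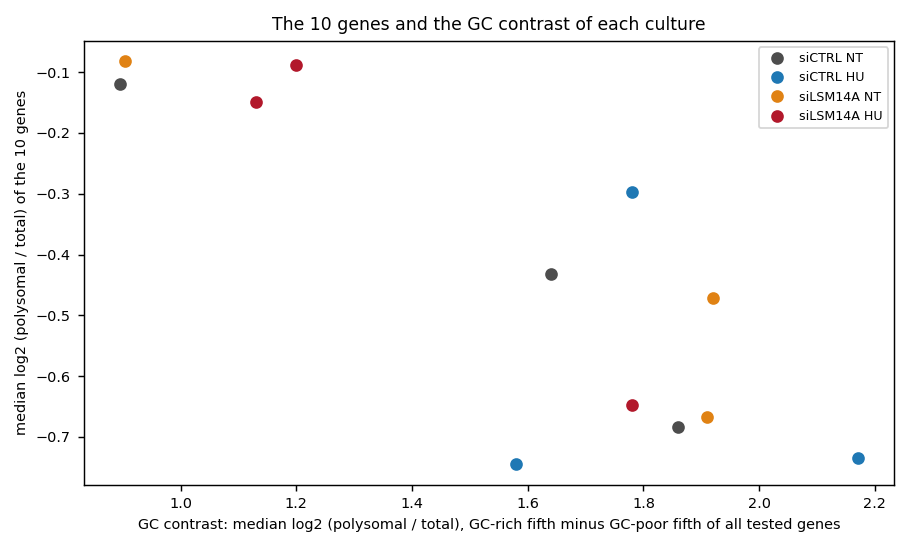
Median log2 polysomal-to-total ratio of the 10 checkpoint genes (y axis) against the GC contrast of the same culture (x axis, log2), 1 point per culture, coloured by condition. The 4 cultures with contrasts of 0.896 to 1.2 have medians between -0.15 and -0.082, above the other 8. Both axes use the same ratios and most of the 10 genes are GC-poor, so the axes are not independent.

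The response to HU was tested within each siRNA. In total RNA of siCTRL cells, 0 members and 0% of 12506 genes were called by edgeR, and 0 members were at an unadjusted p under 0.05, beside 1.44% of genes, with the same 0 and 0 members by DESeq2. With the replicate number as a block edgeR called 10 genes higher and 5 lower here, none of them a member. The estimate was 0.014 (95% interval -0.13 to 0.16) for CHEK1 and -0.076 (95% interval -0.24 to 0.09) for ATR, so that a change of either mRNA by more than 0.24 on the log2 scale after 2 h lay outside its interval. In siLSM14A cells, 0 members and 0% of 12497 genes were called, and 1 member was at an unadjusted p under 0.05, beside 5.2% of genes, by edgeR and by DESeq2. It was ATR, at 28.5, 33 and 30.9 CPM with HU and 34.8, 33.2 and 36.6 without. The groups did not overlap, but the log2 difference of -0.19 (95% interval -0.34 to -0.032, adjusted p = 0.855) did not pass the correction, and it was -0.09 without the 4 cultures of low GC contrast. In these cells RAD1 (-0.11) was also lower and ATRIP (0.13) higher in every HU library. ATRIP was likewise higher in every siCTRL HU library than in any siCTRL NT library, in total (0.15) and polysomal RNA (0.26). The share of all genes without overlap is not given here.

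In polysomal RNA, HU against NT called 0 members in siCTRL cells, beside 0% of 12315 genes, and 0 at an unadjusted p under 0.05, beside 2.1% of genes. CHEK1 was at -0.27 (95% interval -0.64 to 0.10), RAD17 at -0.32 (95% interval -0.85 to 0.21) and TOPBP1 at -0.32 (95% interval -0.86 to 0.23). In siLSM14A cells 0 members were called, beside 0% of 12290 genes, and 0 at an unadjusted p under 0.05, beside 0.871% of genes, with CLSPN furthest from 0 at 0.39 (95% interval -0.24 to 1.02). The TE comparisons of HU with NT called 0 members in siCTRL cells, beside 0% of 12693 genes, and 0 in siLSM14A cells, beside 0% of 12660 genes. At an unadjusted p under 0.05 there were 0 members in both, beside 2.31% and 1.41% of genes. TE of CHEK1 differed by -0.28 (95% interval -0.63 to 0.071) in siCTRL and by 0.068 (95% interval -0.38 to 0.52) in siLSM14A cells. Without the 4 cultures the polysomal estimates in siCTRL cells were -0.17 for CHEK1, -0.071 for RAD17 and 0.071 for TOPBP1, that of CLSPN in siLSM14A cells was 0.60, and the TE estimates of CHEK1 were -0.20 and -0.17. DESeq2 called 0 members in these 4 comparisons, also at the unadjusted threshold.

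Whether HU acted differently after the knockdown was tested as an interaction. In total RNA 0 members and 0% of 12666 genes were called, with 0 members and 2.9% of genes at an unadjusted p under 0.05. In polysomal RNA 0 members and 0% of 12515 genes were called, with 0 members and 1.07% of genes at the unadjusted threshold. For TE 0 members and 0% of 12855 genes were called, with 0 members and 1.9% of genes at the unadjusted threshold. DESeq2 gave 0 members at both thresholds in all 3. The largest TE estimate was 0.60 (95% interval -0.30 to 1.5) for TOPBP1, and the estimates for ATR, 0.35 with a 95% interval of -0.45 to 1.16, and for CHEK1, 0.35 with a 95% interval of -0.19 to 0.89, had intervals that include a difference of that size. Without the 4 cultures the 3 estimates were 0.16, -0.27 and 0.032.

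**Figure D5:**
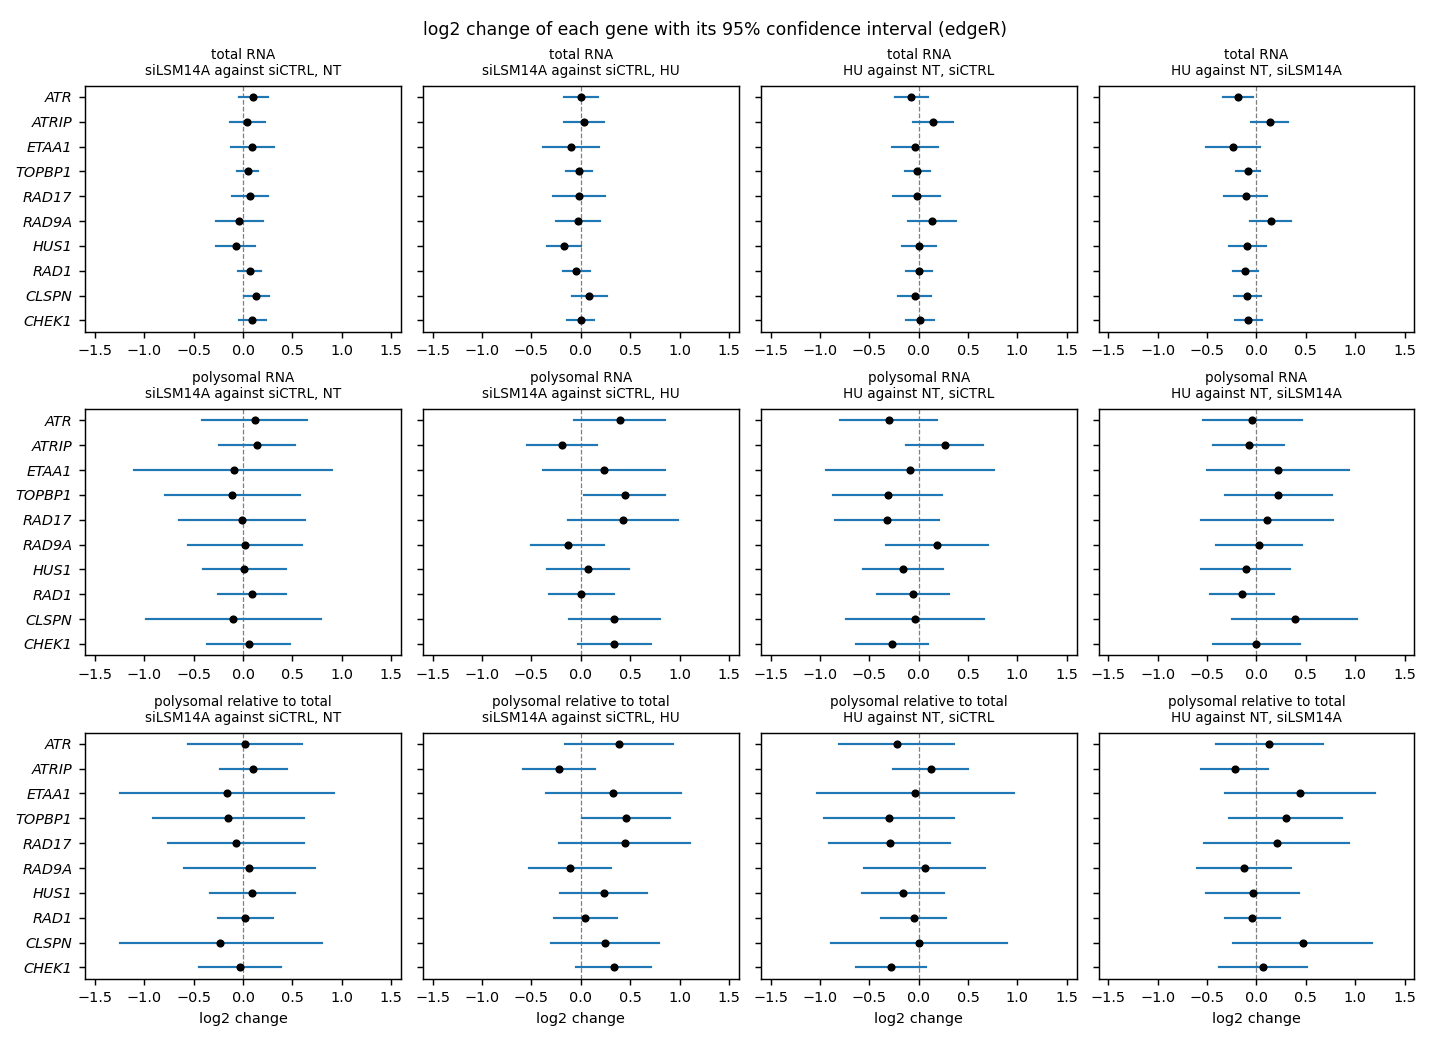
The log2 change of each checkpoint gene (x axis) with its 95% confidence interval in total RNA (top row), polysomal RNA (middle row) and the polysomal-to-total ratio (bottom row), for the knockdown without and with HU and for HU in siCTRL and siLSM14A cells (columns). Intervals are narrow in total RNA and wide in polysomal RNA, and no gene passed an adjusted p of 0.05.

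Other genes of the pathway were counted from a list of 41: further clamp and loader genes, RPA, mediators, effectors, the ATM branch and factors for maturation and turnover of ATR and CHEK1. Of 39 tested in total RNA without HU, 1 was called higher in siLSM14A cells and 0 lower, beside 0.566% of all genes called. It was WEE1, the kinase that inhibits CDK1 and acts in parallel with CHEK1, at 40.5, 38 and 38.6 CPM in siLSM14A NT cells and 31.3, 31.6 and 30.8 in siCTRL NT cells. The groups did not overlap, and the log2 change was 0.32 ± 0.056 (SE, edgeR adjusted p = 0.0341). The call was lost with the replicate block (adjusted p = 0.113). It was also lost on leaving out any 1 culture of the comparison but siLSM14A NT replicate 3 (adjusted p = 0.0382 without it), with adjusted p from 0.096 without siCTRL NT replicate 1 to 0.238 without siCTRL NT replicate 3, and without the 4 cultures of low GC contrast (0.748). The log2 change of WEE1 itself stayed at 0.32 with the block, at 0.29 to 0.34 in the leave-one-out fits and at 0.28 without the 4 cultures. Under HU the same comparison gave 0.12 ± 0.0733 (adjusted p = 0.735), and the interaction had an unadjusted p of 0.0425 and an adjusted p of 1. In the other 14 comparisons of conditions edgeR and DESeq2 called 0 of the 40 or 41 list genes tested. With the replicate block, 3 of the 40 list genes (CDC25A, CDC25B and DBF4, named after their values were seen) passed in the knockdown comparison with HU in total RNA, beside 6.85% of all genes with that block, and 1 (CDC25B) passed when GC offsets were added. At an unadjusted p under 0.05 there were between 0 and 5 list genes in each of the 15 comparisons, by either tool. The 5 in total RNA without HU stand beside 10.8% of all genes, and the 5 for TE of the knockdown with HU beside 3.85%.

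Between polysomal and total RNA, 18 of the 41 list genes were higher, beside 40.4% of all genes, and 15 were lower, beside 44.3%, with a median log2 difference of 0.014 against -0.058 for all genes. RPA1 and RPA2 were higher and RPA3 did not pass, the clamp and loader genes split into 4 higher and 5 lower, and the effectors into 4 higher and 4 lower of 9. The smallest p-values belonged to TP53BP1, a chromatin mediator (1.26 ± 0.0526, SE), to TELO2 (1.6 ± 0.083) and TTI2 (0.96 ± 0.0551), which help to fold ATR and related kinases, and to PLK1, a mitotic kinase that ends checkpoint signalling (1.17 ± 0.0668). The adjusted p of these 4 lay between 1.34e-16 and 2.44e-14. DESeq2 called 33 of the 41. The values of these list genes are without GC offsets, which changed the sign of RAD9A and CHEK1 among the members. The GC content of the list genes is not given here.

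Finally, the genes whose level followed ATR and CHEK1 most closely over the 24 libraries were listed, as a description. By Pearson correlation of log2 CPM among 12855 genes, UTP20 (0.949), UBR1 (0.948) and CKAP5 (0.940) came nearest to ATR, and SCFD1 (0.973), RSL1D1 (0.972) and ACADSB (0.968) to CHEK1. The libraries share their fraction and depth, and these 6 genes had a GC content of 37.9% to 44.7%, near that of ATR and CHEK1.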

How the data were processed

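Total and polysomal RNA of A2058 cells was sequenced as stranded poly(A)+ libraries with paired reads of 100 bases. According to the study's methods, the authors mapped trimmed reads on hg19 using STAR 2.6.1a and deposited raw read counts per gene, not normalised. The authors' own comparison of translation between fractions is not used here. Genes were identified and described with GENCODE 44 lifted to GRCh37, which is not the release the authors counted with. CPM values were computed with TMM library sizes.

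Genes were kept with filterByExpr (minimum count 10, minimum total 15) and tested with edgeR 4.0.16 (quasi-likelihood F-test, R 4.3.3) across all genes, with Benjamini-Hochberg adjustment and a threshold of 0.05. A condition was compared within total RNA and within polysomal RNA over the 2 groups concerned, TE as the interaction of fraction and condition, and the fractions over all 24 libraries. DESeq2 1.42.0, other size factors and filters, GC offsets (a loess curve of span 0.3 per library), the replicate block, a culture block for TE, and leaving out each replicate were tried as alternatives. The test was checked on simulated data. The 10 members and LSM14A were always named. Of the pathway list, genes past the threshold were named, at most 4 per comparison by smallest p, and for ATR and CHEK1 the 3 genes of highest correlation. The members and lists were chosen with earlier results of these data known.

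Same-numbered samples were checked for pairing by the correlation of their deviations from the group means. All 3 correlations were above 0.1 for siLSM14A against siCTRL with HU in total RNA (0.29, 0.16 and 0.2) and for HU against NT in siCTRL cells in total RNA (0.24, 0.2 and 0.17), likewise in polysomal RNA (0.2, 0.14 and 0.39), and not in the other 5. Total and polysomal libraries were tied only by their replicate number, and the correlation of their deviations ran from -0.27 to 0.2 over the 12 cultures. Depth was between 24789280 and 44897501 counts per library. A coding stretch of 1 further member is not reported here.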

Additional observations from a re-analysis of the deposited data

How the results depend on the processing

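In the 15 comparisons of conditions no member was called under any alternative run, and all 282 recomputed counts of called members stayed within 1.5 times the reported count. The 13 member changes at an unadjusted p under 0.05 were recomputed 263 times. Of these, 257 kept their direction and their side of the adjusted threshold of 0.05. The member changes between conditions passed the adjusted threshold in no fit, and whether their unadjusted p stayed under 0.05 is not part of this count. The exceptions were all in polysomal against total RNA with GC offsets. RAD9A turned to -0.18 and CHEK1 to 0.087 with GC offsets, and to -0.18 and 0.086 with the replicate block and GC offsets. CLSPN no longer passed, at -0.16 with either (edgeR adjusted p = 0.233 and 0.224). RAD1, at -0.013 and not called in the reported fit, was at 0.64 and called with either. Of the 150 estimates of a member between conditions, none called, 92 had the other sign under at least 1 alternative, among them ATR, RAD17 and CHEK1 in polysomal RNA for the knockdown with HU. Unadjusted counts of members also moved, up to 3 of 10 for HU in siLSM14A cells in total RNA (without siLSM14A HU replicate 3, or with the block). The share of all genes at that threshold in those fits is not given here, so this count is not read as a trait of the members. The fits with GC offsets, alone among these alternatives, set each gene against genes of like GC content by construction. The replicate block changed no other call of a member. The fits without the 4 cultures of lowest GC contrast were chosen after seeing the data, and in them ATR moved to 0.39 and CLSPN to -0.81.

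Counts over all genes depended more on the setting, and the cause was not tested. For the knockdown in total RNA without HU, 71 genes were called by edgeR, 200 by DESeq2, 45 with the replicate block, 122 with GC offsets, 28 to 80 without 1 replicate (28 without siCTRL NT replicate 3) and 10 without the 4 cultures. With HU, 100 were called, 189 by DESeq2, 855 with the block, 156 with GC offsets, 46 to 101 without 1 replicate (46 without siCTRL HU replicate 2) and 16 without the 4 cultures. In polysomal RNA the knockdown called 2 genes without HU (DESeq2 8, GC offsets 4) and 8 with HU (DESeq2 22, the block 40, 2 without siCTRL HU replicate 2 and 2 without the 4 cultures). HU in siCTRL cells, with 0 called, reached 26 in total RNA (block with GC offsets; 6 without siCTRL NT replicate 1) and 2 in polysomal RNA (without siCTRL NT replicate 1; 1 with the block). HU in siLSM14A cells, with 0 called, reached 6 in total RNA (without siLSM14A NT replicate 3), 18 in polysomal RNA (without the 4 cultures) and 16 for TE (without siLSM14A NT replicate 1). Between the fractions 10900 genes were called, and 10036 to 11249 under the alternatives. With 3 replicates and the spread of the polysomal libraries, the widest 95% interval of a member between conditions spanned 2.6 on the log2 scale. Changes inside such an interval were compatible with the data.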
